A study of Mus musculus with 4 samples.

Results

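Kap, the mouse gene for kidney androgen-regulated protein, is described here as the gene whose promoter drives the Cre recombinase of this study. It was chosen by its symbol and is 1 of the 32285 genes in the deposited tables. Renal cortex of male mice was measured by single-cell RNA sequencing, in which each captured transcript is counted once by its molecular tag (UMI), whatever its length. All mice carried floxed alleles of Tfeb (Tfeb fl/fl). Those called KAP here carried the KAP-Cre transgene in addition (Tfeb fl/fl KAP), and those without Cre are called controls. Young mice were 6 weeks old and aged mice 24 months old, which gave 4 libraries, and lists of 4 values follow the order young control, young KAP, aged control, aged KAP. Cortex of 2 or 3 mice was pooled in each library, so that every condition is 1 sample, there is no test across mice, and all intervals below are exact 95% intervals that cover counting error only. A difference of genotype or age and a difference between the pooled mice cannot be told apart.

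The KAP protein is made in the mouse proximal tubule. Its gene is a classical androgen target of the early tubule, the S1 and S2 segments, whereas its expression in the straight S3 segment depends less on androgen. For this reason a Kap promoter is used to direct transgenes to the proximal tubule of male mice. The counts below are of the endogenous Kap transcript. The Cre transcript was not analysed here, and a transgene promoter need not follow the endogenous gene in every cell.

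In GRCm38, the mm10 build named in the submitters' processing notes, GENCODE vM21 places Kap (ENSMUSG00000032758.4) on the minus strand of chr6:133849851-133853762, as a protein-coding gene with 2 transcripts of 4 exons each. The longer transcript has 707 bases, of which 363 are coding, and its last exon, chr6:133849851-133850105, holds the last 50 coding bases and the 3′ untranslated part near which 3′ counting reads fall. The 250 bases before the RefSeq start of Kap (GRCm38.p6, chr6:133853668-133853917, minus strand) are printed because they lie nearest upstream of that start. Capitals mark a GC box (GGGCGG, here on the opposite strand, as CCGCCC) and a TATA box (TATAAA).

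Kap promoter: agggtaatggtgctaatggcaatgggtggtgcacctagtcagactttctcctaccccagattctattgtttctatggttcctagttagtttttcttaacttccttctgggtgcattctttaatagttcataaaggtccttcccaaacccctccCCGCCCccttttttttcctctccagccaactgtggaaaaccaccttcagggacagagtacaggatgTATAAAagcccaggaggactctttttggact

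The TATA box lies 31 to 26 bases before the start, and the same letters on either strand were found in 12.4% of 32851 mouse promoters of the same length. The GC box lies 97 to 92 bases before the start, and 32.7% of the promoters held it. Of other letters searched on both strands, CCAAT (in 33.8% of promoters) and the HNF1 letters GTTAAT (6.43%) were not in this window, which says nothing of sites outside it. No 2 of the motifs overlapped here. The window had 45.6% G and C, against a median of 52.4% over all promoters. Both GENCODE transcripts start farther upstream than RefSeq and inside the printed window, the longer at position 133853762 and the shorter at 133853673. By the longer transcript the TATA box lies within the first exon, and the GC box spans its start. The KAP-Cre construct itself was not among the sequences used here.

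The tables held 16945, 12685, 8358 and 10097 barcodes, and 10045, 7895, 5704 and 6547 cells passed the filters, with a median of 11768 to 14736 UMIs per cell. Pairs of libraries shared 27 to 57 barcodes. Cells were clustered without Kap among the genes used, and clusters were named from marker lists, which gave 6456 cells like those of the S1 and S2 segments (S1/S2-like) and 5387 cells like those of the S3 segment (S3-like). The deposited counts had already been corrected for free RNA by the authors. Many barcodes hold an explicit 0 for a gene in place of no entry, as a correction that takes away every UMI of the gene would leave it, and the uncorrected counts were not analysed here. Over all barcodes 3357910, 2526305, 2678798 and 3018344 Kap UMIs remained. A Kap count was left in 7261, 3290, 4399 and 3767 barcodes, and an explicit 0 stood in 8944, 9283, 3896 and 6279. No other gene of the young control library had as many explicit zeros, and Kap ranked between the second and the fifth gene in this respect in the other libraries, behind S100g.

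Kap was the most abundant transcript of S3-like cells, ahead of every mitochondrial gene. Its level there was 73977, 68725, 57921 and 74349 CPM (UMIs per 1000000 UMIs), which is 7.40, 6.87, 5.79 and 7.43% of all UMIs. The aged control library was the lowest, and the other 3 lay close together. A Kap UMI was counted in 97.6, 98.8, 100 and 100% of S3-like cells, with medians of 1343, 1144.5, 1249 and 1370 Kap UMIs per cell.

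S1/S2-like cells held less. Their level was 12031, 9352, 16530 and 24041 CPM, so that both aged libraries lay above both young ones. A Kap UMI was counted in 43.5, 38.5, 79.1 and 76.8% of these cells, and an explicit 0 stood in 54.8, 61.5, 20.9 and 23.2%. The median S1/S2-like cell of both young libraries therefore had 0 Kap UMIs, against 69 and 115 in the aged ones. Median depth was 11225, 11958, 14701 and 12635 UMIs in S1/S2-like cells and 21889, 21671, 26839 and 24307 in S3-like cells. S3-like cells made up 15.8 to 23.9% of the cells and held 88.4, 88.2, 84.0 and 80.6% of all Kap UMIs of the cells kept.

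**Figure D1:**
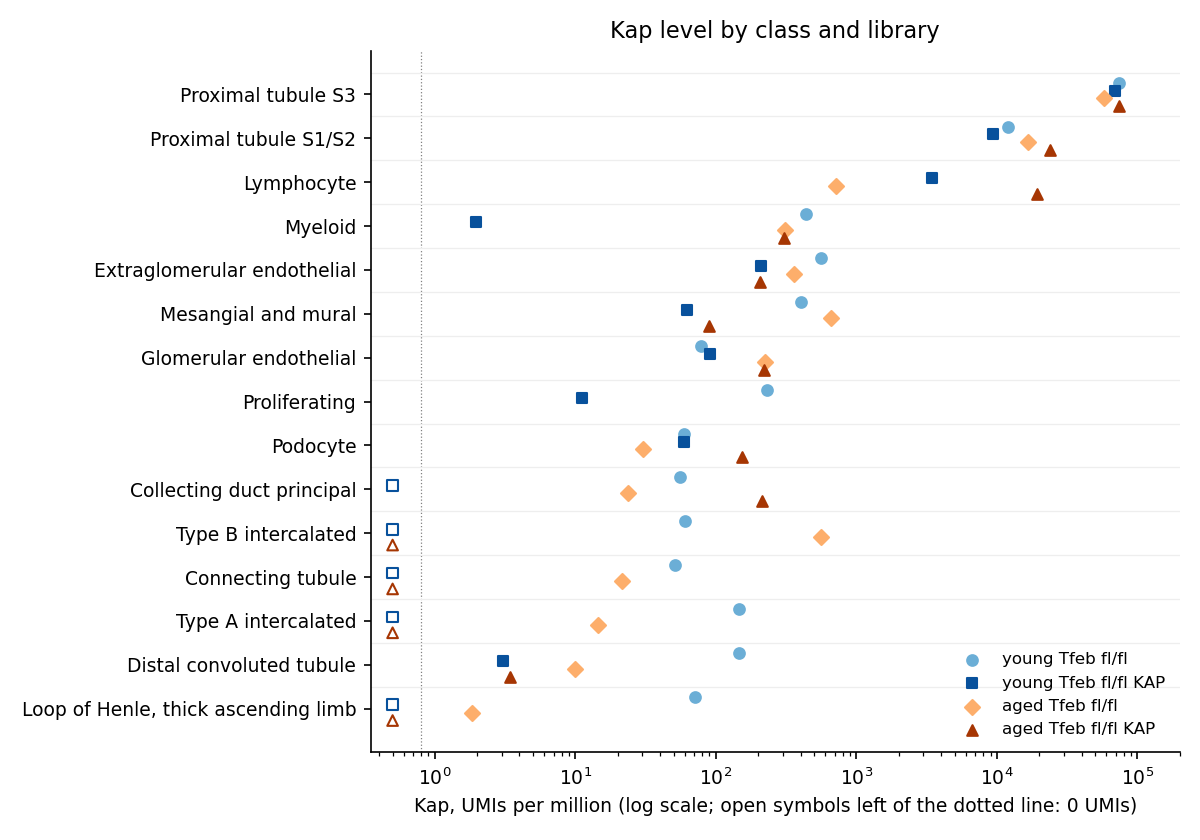
Kap level in CPM on a log axis, for each class with at least 20 cells and each of the 4 libraries; open symbols left of the dotted line stand for 0 UMIs. S3-like cells lie between 57921 and 74349 and S1/S2-like cells between 9352 and 24041, and the remaining classes spread from 0 to 664 apart from the small lymphocyte class.

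The 2 segment classes were not uniform. The proximal tubule fell into 8 clusters. The highest was cluster 5 (S3-like, led by the aspartic protease gene Napsa and by Cyp2a4, a steroid hydroxylase), with 97118, 94322, 78090 and 97844 CPM and a Kap UMI in every cell. Cluster 0 (S3-like, led by the amino acid transporter Slc7a13, the organic anion transporter Slco1a1 and Kap itself) followed with 73042, 66722, 53075 and 71596 CPM. Cluster 10 was S3-like by its markers but was led by Osgin1, Angptl4, Gadd45g and Errfi1, genes that respond to stress or growth factor signals, and had 39870, 39580, 36813 and 48066 CPM.

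Among S1/S2-like clusters, cluster 2 (led by Miox, Ttr and the organic anion transporter Slc22a8) had 43123, 37325, 34072 and 47279 CPM, as much as cluster 10. Its segment score was nearly tied, with a mean marker fold of -0.50 for S1/S2 and -0.52 for S3 on the log2 scale, so that its place in the S1/S2-like class is not firm. Cluster 15 (led by Mdk, Slc5a12 and Slc6a19) had 11717, 10919, 18203 and 29151 CPM. In its young libraries 49.2 and 38.4% of cells had a Kap UMI, and in its aged libraries 90.5 and 90.8%. Clusters 2 and 15 held 99.3, 98.9, 98.3 and 96.5% of the Kap UMIs of the S1/S2-like class.

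The clusters richest in Slc5a2, the glucose transporter SGLT2 of the early tubule, had the lowest Kap. Cluster 7 had 400, 820, 1948 and 4521 CPM. Cluster 11 had 136, 6.29, 485 and 1585 CPM, and cluster 16 had 22.2, 0, 119 and 102 CPM. In cluster 16 an explicit 0 stood in 98.2, 100, 65.0 and 82.2% of cells. In all 3 clusters the young libraries lay below both aged ones. Cluster 16 was below the podocytes of its library, which should not make Kap, except in aged control mice, where podocytes had 30.3 CPM. The podocyte level rested on few cells. In young KAP mice 1 of 138 podocytes held all 70 Kap UMIs, and in aged KAP mice 1 podocyte held 52.3% of them. A Kap UMI was counted in 17.8% of cluster 16 and 11.3% of podocytes in aged KAP mice.

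**Figure D2:**
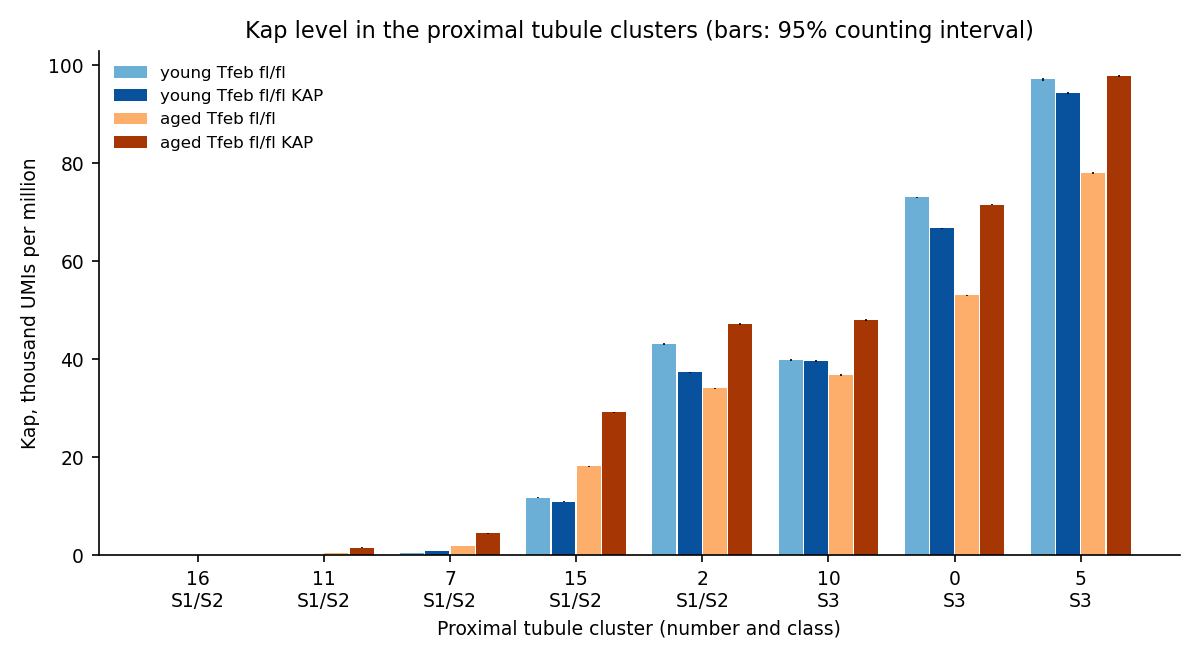
Kap level in 1000 CPM in the 8 proximal tubule clusters, ordered by their mean, for each library; bars start at 0 and error bars are 95% counting intervals. The level climbs from 0 to 119 CPM in cluster 16 to between 78090 and 97844 CPM in cluster 5, and the aged control library is the lowest of the 4 in clusters 2, 10, 0 and 5.

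A gradient by cell in place of cluster was drawn from 2 transcripts that mark the ends of the proximal tubule, Slc5a2 for the start and Slc7a13 for S3. Both are also among the markers that named the 2 segment classes, so that the gradient is not independent of those names. Proximal tubule cells with at least 3 UMIs of the pair, 76.4 to 88.0% of each library, were sorted into 5 equal bins by the share of Slc7a13. Kap was lowest in the Slc5a2-rich bin, with 4806, 7988, 3301 and 9938 CPM, and highest in the Slc7a13-rich bin, with 80487, 78234, 56211 and 72503 CPM. The log2 ratio of the last bin to the first was 4.07, 3.29, 4.09 and 2.87, and its counting interval reached at most 0.02 to either side. The 3 bins between held 20 to 75 cells each. In the second bin Kap already stood at 36793, 47928, 19396 and 42055 CPM, and it was higher in each further bin of every library. The step from the first to the second bin was therefore the largest on the log2 scale in all 4 libraries.

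Within the first bin the cells were unequal. A Kap UMI was found in 26.7, 29.6, 61.8 and 62.8% of them, an explicit 0 stood in 72.2, 70.4, 38.2 and 37.2%, and the median cell of the young libraries had none. From the third bin on, at least 98.1% of cells had Kap. The level of the first bin thus rested on a minority of its young cells. What the other cells held before the correction for free RNA cannot be read from the deposited counts. With bins drawn from the other S1/S2 and S3 markers the log2 ratio of last to first bin was 1.46, 1.21, 0.52 and -0.34, but 3443, 3143, 2640 and 2283 cells fell into the first of these bins and 11, 4, 2 and 3 into the last. These S1/S2 markers include Slc34a1, with 3184 to 4873 CPM in every proximal tubule cluster, against 33.6 to 402 CPM of the S3 marker Slc22a30. The first bin therefore also held 1457, 1227, 1340 and 1070 S3-like cells, and these bins cannot check the gradient.

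**Figure D3:**
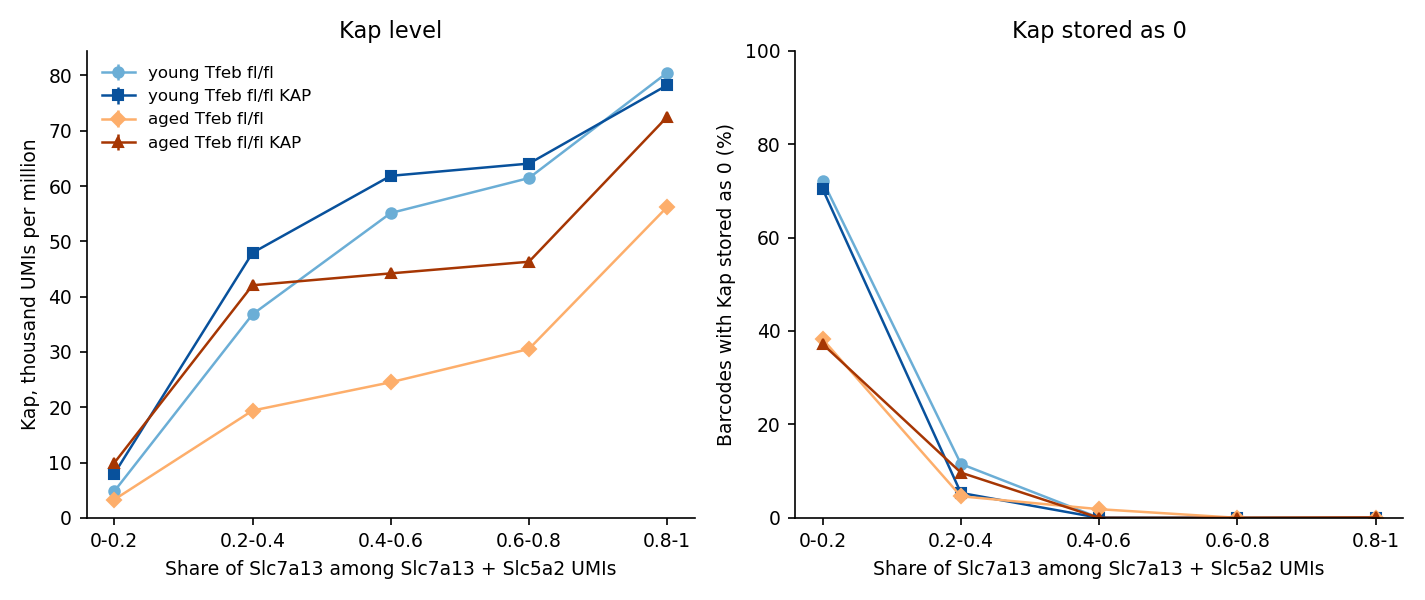
Proximal tubule cells binned by the share of Slc7a13 among their Slc7a13 and Slc5a2 UMIs. Left, Kap in 1000 CPM with 95% counting intervals, from 3301 to 9938 CPM in the first bin to 56211 to 80487 CPM in the last; right, the percent of barcodes with an explicit 0 for Kap, 37.2 to 72.2% in the first bin and at most 0.0790% in the last.

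To compare cells at equal depth, each cell was thinned to 2000 UMIs, and 1 to 11 proximal tubule cells per library that were shallower were left out. Among S3-like cells the median was 131, 128, 103 and 126.5 Kap UMIs of 2000, and the middle 50% of cells lay between 85.0 and 183, 82.0 and 178, 67.0 and 144, and 89.3 and 178. The coefficient of variation was 0.546, 0.529, 0.528 and 0.467. S1/S2-like cells formed a broad distribution instead: 61.7, 64.1, 29.3 and 27.9% had 0 Kap UMIs, while 12.9, 13.2, 7.75 and 15.7% had more than 100. Between these ends, 1 to 50 UMIs were found in 16.9, 12.2, 42.7 and 34.1%. Cells at 1 to 50 UMIs were thus a larger share of the aged than of the young cells, although most cells of every library lay outside that range. Only 1 to 10 UMIs were found in 10.7, 6.55, 20.8 and 16.4% of the S1/S2-like cells. Cells with an explicit 0 count as 0 here, and their level before the correction cannot be read.

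**Figure D4:**
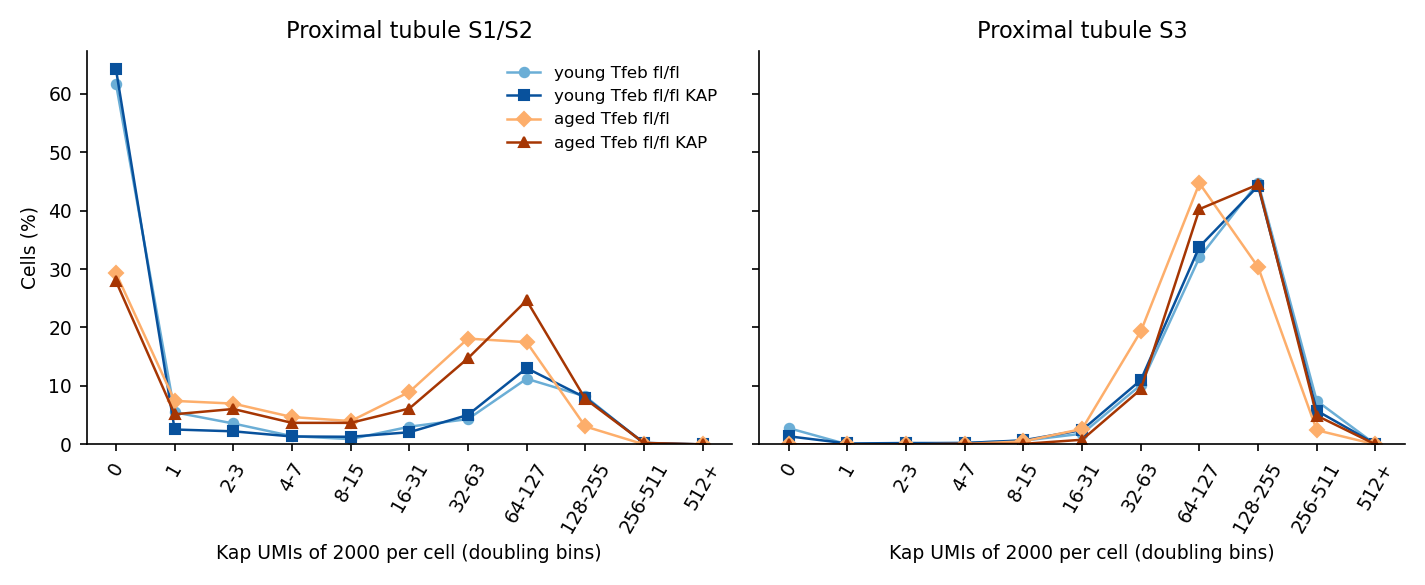
Percent of cells by the number of Kap UMIs after each cell was thinned to 2000 UMIs, in bins that double, for S1/S2-like (left) and S3-like cells (right) of each library. S3-like cells form a single peak, with medians from 103 to 131 UMIs; of the S1/S2-like cells 61.7 and 64.1% of the young and 29.3 and 27.9% of the aged ones are at 0.

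As a guide to where the Kap promoter is active, cells were counted whose thinned Kap count lay above that of 99% of podocytes, mesangial and mural, endothelial, myeloid and lymphoid cells of their own library. That threshold was 13, 20, 10 and 8 UMIs of 2000. Of S3-like cells 96.3% (95.2 to 97.1), 96.5% (95.3 to 97.4), 99.9% (99.5 to 100) and 99.9% (99.5 to 100) passed it. Of S1/S2-like cells 27.4% (25.5 to 29.5), 27.6% (25.6 to 29.7), 49.9% (47.2 to 52.7) and 56.9% (54.0 to 59.7) passed it. Of all proximal tubule cells these were 58.0, 55.4, 75.4 and 77.6%. The young libraries had the higher thresholds. No podocyte passed in any library, but podocytes are among the cells that set the threshold, so that this cannot check it. Against the highest of these background cells in place of 99% of them, 86.7, 75.9, 72.7 and 35.9% of S3-like cells passed. With coarser clusters 1861 of 2032 cells of cluster 2 and 785 of 990 cells of cluster 15 joined the S3-like class, and then 0.947, 0.505, 7.75 and 18.8% of S1/S2-like cells passed.

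By cluster, 73.5 to 97.2% of cluster 2 and 83.2 to 99.7% of cluster 10 passed, and 98.4 to 100% of clusters 0 and 5. Cluster 15 gave 35.9, 28.1, 74.2 and 85.4%, and cluster 7 gave 2.41, 3.61, 9.76 and 23.9%. At most 10.8% of cluster 11 and 1.11% of cluster 16 passed. Along the gradient 10.3, 16.8, 12.1 and 30.4% of the Slc5a2-rich bin passed, and at least 99.7% of the Slc7a13-rich bin. The cells that passed were S3-like for 73.7, 70.3, 67.6 and 62.1%.

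Outside the proximal tubule Kap was seldom counted after the correction. The classes other than proximal tubule had 121, 29.2, 114 and 137 CPM together, which is 0.258, 0.0741, 0.276 and 0.259% of the level in all proximal tubule cells of the same library. A Kap UMI was counted in 10.2, 0.618, 12.1 and 3.37% of these cells, at a median depth of 10462, 10485, 10824 and 9311 UMIs. With counts and explicit zeros both included, Kap had an entry in 96.0, 100.0, 99.9 and 100.0% of them. Nearly every barcode of the cortex thus carried a Kap entry, and the shares with a remaining UMI differed by library.

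Among tubule classes, thick ascending limb cells had 70.9, 0, 1.85 and 0 CPM. Connecting tubule cells had 51.1, 0, 21.3 and 0 CPM, and distal convoluted tubule cells 145, 3.06, 9.86 and 3.42 CPM. The young control library was the highest in each of these classes and, with 146 CPM, in type A intercalated cells. In collecting duct principal cells it had 55.9 CPM against 213 in aged KAP mice, where 2 cells held the Kap UMIs. In type B intercalated cells it had 59.8 CPM against 562 in aged control mice, where 4 cells held them. The young control library also had the smallest share of explicit zeros over all genes, 2.90% of its entries against 9.41 to 12.9% in the other libraries. Of the 1382 thick ascending limb cells of young KAP mice, 1381 held an explicit 0, so that the level before the correction cannot be read there. Podocytes had 59.0, 59.5, 30.3 and 153 CPM, and extraglomerular endothelial cells 558, 208, 358 and 204 CPM.

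What remained outside the proximal tubule was concentrated in few cells. The 1% of these cells with the most Kap, 28 to 59 cells per library, held 79.6, 100.0, 72.0 and 96.7% of their Kap UMIs. The highest level outside the proximal tubule was that of lymphocytes in the aged KAP library, 19169 CPM over 20 cells, of which 35.0% had a Kap UMI. The lymphocytes of the young KAP library had 3427 CPM over 46 cells and those of the aged control library 714 CPM over 93 cells, and the young control library had too few to compare. Without lymphocytes, the level outside was 0.242, 0.0382, 0.260 and 0.134% of that in the proximal tubule. In lymphocytes of the young KAP, aged control and aged KAP libraries Kap stood at 8.71, 1.72 and 36.1% of its proximal tubule level. Other abundant proximal tubule transcripts, 19 in the young and 21 in the aged libraries, had medians of 21.0, 4.80 and 27.7% there. Kap was thus not the only proximal tubule transcript in this class. Whether the cells with Kap outside the proximal tubule hold proximal tubule RNA through doublets was not tested.

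Other abundant proximal tubule transcripts were mostly counted outside at a larger share of their level, and whether those cells make them was not tested. In podocytes, mesangial and mural, endothelial and immune cells together, Kap stood at 0.879, 0.513, 0.812 and 1.02% of its proximal tubule level. The values of the KAP libraries leaned on few lymphocytes. In aged KAP mice 7 of 20 lymphocytes held 3011 Kap UMIs, and in young KAP mice 7 of 46 held 736. The other classes of this group stood at 0.169 to 0.575% in aged KAP mice. The same share for 19 or 21 other abundant transcripts had a median of 3.87, 3.51, 3.27 and 2.40%. Miox (myo-inositol oxygenase) had 3.34, 2.06, 0.811 and 0.485% whereas Calml4 had 23.8, 22.4, 19.3 and 21.6%. In both young libraries 0 of 19 other transcripts had a smaller share than Kap, and in the aged ones 1 and 3 of 21 had. Lymphocytes are included in these counts. Free RNA from 1 source would keep the uncorrected counts of its genes in 1 ratio, and these ratios were not alike after the correction. Barcodes with fewer than 1000 genes, which were left out of all classes, had 2651, 2203, 1547 and 1713 CPM of Kap, more than the classes outside the proximal tubule had together.

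Conditions were compared first in S3-like cells. Aged against young control mice, Kap differed by -0.35 (95% interval -0.36 to -0.35) on the log2 scale. Young KAP against young control mice, the difference was -0.11 (-0.11 to -0.10). Aged KAP against aged control mice it was 0.36 (0.36 to 0.36), and aged against young KAP mice it was 0.11 (0.11 to 0.12). The 4 differences share libraries, and the lower level of the aged control library stands in 2 of them. None reached 1 on the log2 scale, which 1.73, 0.483, 0.976 and 1.51% of the 6625 to 6662 genes with at least 10 CPM did in either direction. The absolute difference of Kap was exceeded by 17.3, 56.5, 8.51 and 58.2% of these genes.

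In S1/S2-like cells the same differences were 0.46 (0.45 to 0.47), -0.36 (-0.37 to -0.36), 0.54 (0.53 to 0.55) and 1.36 (1.36 to 1.37). The last one was past 1 on the log2 scale, as were 3.3% of 6935 genes in either direction, and the other 3 were not, as against 2.95, 0.249 and 0.467% of genes that were. These class values mix clusters of very different level. Clusters 2 and 15 made up 40.2, 43.8, 55.5 and 53.1% of the S1/S2-like cells. In a choice made after the data were seen, the clusters of both libraries were weighted by their share of UMIs in the second library of the comparison. The difference between aged and young control mice was then -0.11 and that between aged and young KAP mice 0.73. The difference between the young genotypes was 0.093 when each cell was thinned to 2000 UMIs and 0.98 with at most 20% mitochondrial counts, and thus had no settled direction. With coarser clusters the age differences of the remaining S1/S2-like cells were 3.42 in controls and 5.04 in KAP mice.

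Cluster by cluster, aged against young control mice had less Kap in the clusters rich in it, by -0.46, -0.34, -0.31 and -0.12 on the log2 scale in clusters 0, 2, 5 and 10. The clusters poor in Kap had more, by 0.64, 2.28, 1.84 and 2.43 in clusters 15, 7, 11 and 16. Clusters 11 and 16 did not exceed the 558 CPM of extraglomerular endothelial cells in young controls or the 714 CPM of lymphocytes in aged ones. The young cluster 16 value was 195 Kap UMIs in 4 of 379 cells. Above the background threshold were 0.756 and 4.61% of cluster 11 and 0.265 and 0.714% of cluster 16 in young and aged controls. Whether these 2 differences reflect remaining free RNA was not tested. Aged KAP against aged control mice had more Kap in 7 of 8 clusters, by 0.33 to 1.71, and -0.23 (-0.45 to -0.0035) in cluster 16. The 1.71 was that of cluster 11, where 31.0% of KAP and 37.0% of control cells had a Kap UMI. There 2 cells held 41.9% of the Kap UMIs in KAP and 2 held 34.7% in control mice. In cluster 7, at 1.21, a Kap UMI was counted in 78.8% of KAP and 83.7% of control cells. In both clusters a larger share of KAP cells passed the background threshold. By the summed counts of each bin of the gradient, aged control mice had less Kap than young ones in all 5, by -0.54, -0.92, -1.17, -1.01 and -0.52. The median cell of the first bin went the other way, with 0 CPM in young and 310 CPM in aged controls. Aged KAP mice had more than aged control mice in all 5, by 1.59, 1.12, 0.85, 0.60 and 0.37. Between the young genotypes the bins gave 0.73, 0.38, 0.17, 0.06 and -0.04, so that Kap was higher in KAP mice in 4 of 5 bins although it was lower in both classes. Aged against young KAP mice had 0.32, -0.19, -0.48, -0.47 and -0.11. The genes that define the bins differed with age as well: Slc7a13 was 0.49 higher and Slc5a2 1.05 lower on the log2 scale in S3-like cells of aged than of young control mice. In S1/S2-like clusters 2, 7 and 15 of young control mice Slc7a13 had 117, 3.12 and 12.2 CPM. In the same clusters of aged control mice it had 248, 36.7 and 142 CPM, and it was higher with age in clusters 11 and 16 as well. Slc5a2 had 202, 853 and 561 CPM in clusters 2, 7 and 15 of young control mice. In aged control mice it had 71.0, 702 and 181 CPM there, and it was lower with age in clusters 11 and 16 too. The makeup of the first bin differed with age. There, 87 of 1401 young control and 145 of 1485 young KAP cells were S3-like. In aged mice 7 of 565 control and 11 of 648 KAP cells were. Whether a bin or a cluster holds cells of the same place in the tubule at both ages was not tested.

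Genes with the level most like that of Kap were sought over 57 sums of class and library. The highest Pearson correlations of log2(CPM + 1) among 9338 genes were those of Akr1c21 (0.88), the peroxisomal thiolase gene Acaa1b (0.87), the acetyltransferase gene Nat8 (0.87), the carboxylesterase genes Ces1f and Ces2c (0.86 each), the fatty acid transporter Slc27a2 (0.86), Eci3 (0.86), Tmigd1 (0.85), Slc7a13 (0.85) and Ass1, argininosuccinate synthase (0.85). Over 32 sums of proximal tubule cluster and library, among 7069 genes, they were Gm45645 (0.96), Nat8, Ggt1, Lpl, Inmt, the organic anion transporter Slc22a6, Ces1f and Arsg (0.95 each), Map3k7cl and Slc27a2 (0.94 each). Slc7a13 had 0.92 there and Slc5a2 -0.76. The sums share libraries, depth and the correction for free RNA, so that these values are descriptions.

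The other genes known to be higher in male than in female proximal tubules were set beside Kap. Of 20 listed, 18 were measured in S3-like cells. They differed in the same direction as Kap for 12 of 18 in aged against young control mice and for 16 of 18 in aged KAP against aged control mice, with medians of -0.21 and 0.35. Of all genes 3268 of 6662 and 3201 of 6660 did so, with medians of 0.01 and -0.01. In the comparison of the young genotypes 15 of 18 list genes and 3454 of 6626 of all genes were higher, with a list median of 0.22, where Kap was lower. In aged against young KAP mice 8 list genes were higher and 10 lower, with a median of -0.17, and 3131 of all 6625 genes were higher.

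Slco1a1, an organic anion transporter, differed by -1.47 in aged against young control mice and by 1.75 in aged KAP against aged control mice. Nudt19, a peroxisomal coenzyme A diphosphatase gene, differed by -0.67 and 1.06, Acsm3 by -1.47 and 0.79, and Odc1, ornithine decarboxylase, by -0.54 and 0.73. Cyp4a12a, a fatty acid hydroxylase, differed by 1.19 and 0.23 instead, and Cyp4a12b by -0.32 and -1.21. Past 1 on the log2 scale were 3 of 18 list genes in each of these 2 comparisons, against 1.73 and 0.976% of all genes. In S1/S2-like cells of aged KAP against aged control mice all 18 measured list genes were higher, with a median of 0.32, as were 3247 of all 7062 genes, with a median of -0.02.

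Genes known to be higher in females were measured too sparsely for more than single values. Of 8 listed, 3 were measured in S3-like cells. Cyp2a4, which also led cluster 5, was 3.05 higher on the log2 scale in aged against young controls and 2.67 higher in aged than in young KAP mice. Of the 3 genes, 2 were higher and 1 lower with age in controls, and 1 was higher and 2 lower in KAP mice. Of all genes 3394 of 6662 and 3131 of 6625 were higher. Of 20 genes of steroid receptors, their cofactors and the factors that act on the tubule, 19 were measured in S3-like cells of aged and young control mice, of which 13 were higher and 6 lower, against 3394 higher and 3268 lower of all genes, and none was past 1, as 1.73% of all genes were. Fkbp5, a target of steroid receptors, differed by -0.94, -0.09, 1.58 and 0.73 in the 4 comparisons of S3-like cells in the order given above. In aged KAP against aged control mice 9 of the 19 list genes were higher and 10 lower, with a median of -0.007. There 1 list gene was past 1 on the log2 scale, as were 0.976% of all genes. Between the young genotypes and between aged and young KAP mice 6 and 13 of 18 list genes were higher. Of all genes 3201 of 6660, 3454 of 6626 and 3131 of 6625 were higher in these comparisons.

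Other promoters that direct Cre to kidney cells gave a scale for the Kap level. Slc34a1, the phosphate transporter of the proximal tubule, had 4138 CPM in S1/S2-like and 3558 CPM in S3-like cells of young control mice, nearly level over the segments where Kap had 12031 and 73977. Ggt1 had 296 and 803 CPM, Pck1 726 and 878 CPM, and Slc5a2 724 and 30.0 CPM, the reverse order of Kap. Ndrg1, the promoter gene of an inducible line, had 1936 and 1261 CPM, and 317 CPM outside the proximal tubule. Over the 4 comparisons of S3-like cells, Slc34a1 differed by 0.09, 0.11, -0.01 and -0.03 on the log2 scale, a smaller size than that of Kap in 3 of them and about the same between the young genotypes.

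Tfeb, the gene the Cre deletes, was then read against the Kap level of the same cells. It is a gene of low level: 454, 407, 385 and 199 UMIs were counted in all proximal tubule cells together, and 3′ reads can lie outside the deleted part. Cells were ordered by their thinned Kap count, and Tfeb is given as CPM of the total without Kap. In the lowest tertile Tfeb had 9.12, 8.13, 9.98 and 7.54 CPM. In the middle tertile it had 6.82, 7.99, 6.49 and 4.30, and in the highest tertile 7.05, 5.19, 4.67 and 1.48 CPM. The highest tertile of the aged KAP library, with 30 Tfeb UMIs in 786 cells, was the lowest of the 12 values. Tfeb was also lower from the lowest to the highest tertile in the libraries without Cre. Each tertile was therefore compared with that of the control library of the same age. The tertiles were cut within each library, so that matching tertiles did not hold equal Kap. The median thinned count of the highest tertile was 163, 156, 132 and 162.5 UMIs, and that of the middle one 56.5, 50, 63 and 83. The comparison thus does not fully remove the fall of Tfeb with Kap seen without Cre.

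In aged mice the log2 ratio of Tfeb in the KAP library to that in the control library was -0.41 (-0.78 to -0.04), -0.59 (-1.04 to -0.16) and -1.66 (-2.30 to -1.06) from the lowest to the highest tertile of Kap. In young mice it was -0.17 (-0.49 to 0.16), 0.23 (-0.13 to 0.59) and -0.44 (-0.81 to -0.08). With at most 20% mitochondrial counts the ratio in the middle tertile was -0.11 in aged and -0.16 in young mice. The lowest tertile of the young libraries held only cells at 0 Kap UMIs. Their middle tertile also began at 0, so that these tertiles are not fully separated by Kap. Within S3-like cells the ratio over the tertiles was -0.99, -1.01 and -1.79 in aged and -0.13, -0.36 and -0.73 in young mice, with intervals that overlapped from tertile to tertile. Outside the proximal tubule Tfeb had 18.6, 19.9, 22.4 and 21.6 CPM, and the ratio was 0.10 (-0.02 to 0.22) in young and -0.06 (-0.19 to 0.08) in aged mice. A Tfeb UMI was counted in 7.50 to 12.3% of proximal tubule cells, with the lowest share in aged KAP mice, and in 18.1, 19.4, 21.3 and 19.5% of the others.

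**Figure D5:**
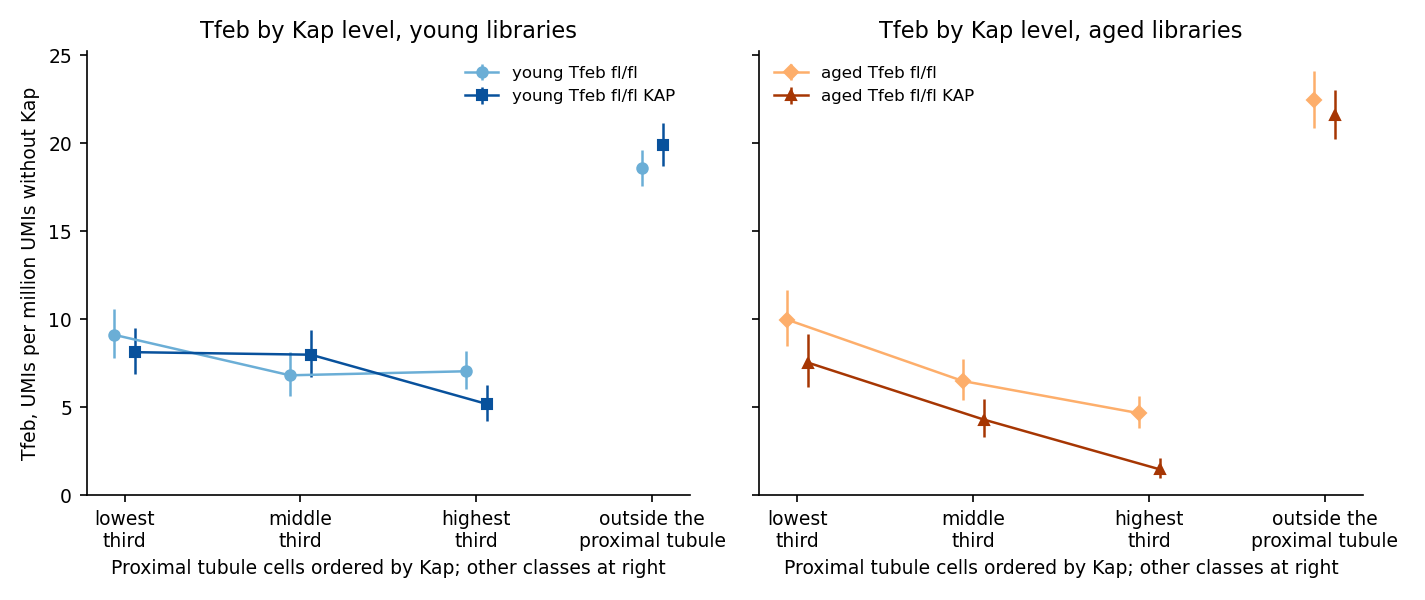
Tfeb in CPM of the total without Kap, with 95% counting intervals, in proximal tubule cells split into tertiles of their Kap count and in all other named classes, for young (left) and aged libraries (right). In aged mice the KAP library lies below the control (Tfeb fl/fl) library in each tertile and most in the highest, 1.48 against 4.67; outside the proximal tubule the intervals of the 2 libraries overlap at both ages.

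By cluster the same ratio in aged mice was -1.94 (-2.56 to -1.36) in cluster 0 and -2.78 (-5.14 to -1.09) in cluster 5, which had 3 Tfeb UMIs in the KAP library. In cluster 2 it was -1.34 (-2.61 to -0.21). In cluster 10, with 48066 CPM of Kap, it was 0.16 (-0.54 to 0.87), in cluster 15, with 29151 CPM of Kap, -0.24 (-0.82 to 0.34), and in cluster 7, with 4521 CPM of Kap, -0.35 (-1.05 to 0.36). Cluster 11, with 1585 CPM of Kap, had -0.88 (-1.94 to 0.14), and cluster 16, with 102 CPM of Kap, had -0.28 (-1.10 to 0.50). Cluster 10 thus had Kap at the level of cluster 2 with no difference of Tfeb detectable at this depth, but the intervals of these clusters overlapped. The interval of cluster 10 did not overlap that of cluster 0, which had more Kap (71596 CPM). In young mice the ratio was -0.30 (-0.67 to 0.06) in cluster 0 and -1.01 (-2.02 to -0.07) in cluster 5. It was 0.41 (-0.34 to 1.16) in cluster 2, -0.32 (-0.998 to 0.35) in cluster 10 and -0.02 (-0.70 to 0.67) in cluster 15. Among cells with Kap above the background threshold it was -0.82 (-1.14 to -0.52) in aged and -0.24 (-0.51 to 0.03) in young mice. Among cells at or under it, it was -0.48 (-0.94 to -0.04) and -0.02 (-0.31 to 0.27).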

How the data were processed

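The deposited values are counts, whole numbers of UMIs per gene and barcode, which the authors made with Cell Ranger (version 6.0.0) and corrected for free RNA with SoupX. The build mm10 is named per the labels, and the annotation was not given in the sources used here. As in the study's methods, barcodes with at least 1000 genes and at most 50% mitochondrial counts were kept, and 971, 574, 287 and 384 presumed doublets (0.8% per 1000 cells) were taken out by an own score against simulated doublets. Each cell was scaled to a total of 10000 before taking logarithms. From 2000 variable genes without Kap, 30 principal components were integrated by an own implementation of Harmony and clustered by Leiden partition at resolution 1 on 20 neighbours (igraph 0.11.9, leidenalg 0.10.2). Sums, intervals and plots were made with pandas 2.3.3, scipy 1.17.1, numpy 2.4.6 and matplotlib 3.10.9 under Python 3.11.15.

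Names of clusters came from marker lists and needed 3 markers detected in at least 10% of cells and, outside the proximal tubule, 1 among their 10 leading genes. The last condition was set after the clusters had been seen, and 1309 cells stayed unnamed. Names are rebuilt and may differ from those of the study. Kap, the lists and the comparisons were chosen with earlier results of these data known. Counts were summed by class and library. CPM have exact Poisson intervals, ratios exact conditional binomial intervals and shares exact Clopper-Pearson intervals, and the limit of a count of 0 is 3 counts. Ratios of all genes needed a mean of 10 CPM and counts in both libraries, and were tested on simulated data. Each condition being 1 library, no test over mice was run. The named genes are Kap, Slc5a2, Slc7a13, Tfeb, the 10 most alike by Pearson correlation, and up to 6 genes of each list and comparison with the largest log2 ratio; Fkbp5, Slc34a1, Ggt1, Pck1 and Ndrg1 were named beside them from the lists. The result of 1 listed gene is not reported here.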

Additional observations from a re-analysis of the deposited data

Results flagged for a closer look

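As class sums, Kap lay on opposite sides of no difference between genotypes at the 2 ages. KAP mice against controls had a log2 ratio of -0.36 in young and 0.54 in aged S1/S2-like cells. In S3-like cells it was -0.11 in young and 0.36 in aged mice. With 1 library per condition the difference between the ages was not tested. The young S1/S2-like value was 0.98 with at most 20% mitochondrial counts and 0.093 in thinned cells, so that in this class the opposite directions depend on the processing. In the bins by Slc5a2 and Slc7a13, young KAP mice had more Kap than controls in 4 of 5 bins, by 0.73, 0.38, 0.17 and 0.06, and -0.04 in the last, whereas aged KAP mice had more in all 5. The first bin held 87 S3-like cells of 1401 in young controls and 145 of 1485 in young KAP mice, which bears on its value.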

How the results depend on the processing

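No paired analysis was possible because each condition is 1 library without replicate numbers. Values of the 4 comparisons follow the order aged against young controls, young KAP against controls, aged KAP against controls and aged against young KAP mice, and other values the order of the libraries. The weighting of clusters, the 95% threshold and the omission of lymphocytes were chosen after seeing the data. The cause of a shift was not tested. The log2 ratio of Kap in S3-like cells kept its sign in all 9 alternatives, and in S1/S2-like cells that of young KAP against controls did not in 4 and that of aged against young controls in 1. With at most 20% mitochondrial counts, it was 1.19, 0.98, 0.63 and 0.84 in S1/S2-like and -0.41, -0.14, 0.41 and 0.14 in S3-like cells. Without doublet removal, it was 0.44, -0.41, 0.55 and 1.40 in S1/S2-like and -0.36, -0.10, 0.36 and 0.10 in S3-like cells. At a Leiden resolution of 0.5, it was 3.42, -0.11, 1.52 and 5.04 in S1/S2-like and -0.41, -0.14, 0.38 and 0.12 in S3-like cells. Without integration, it was 6.76, 0.27, 0.31 and 6.79 in S1/S2-like and -0.18, -0.17, 0.30 and 0.29 in S3-like cells. With Kap among the variable genes, it was 0.24, -0.41, 0.47 and 1.12 in S1/S2-like and -0.34, -0.083, 0.33 and 0.071 in S3-like cells. With cells thinned to 2000 UMIs, it was 0.18, 0.093, 0.52 and 0.60 in S1/S2-like and -0.31, -0.050, 0.30 and 0.040 in S3-like cells. As a mean over cells, it was 0.18, 0.088, 0.52 and 0.61 in S1/S2-like and -0.31, -0.051, 0.30 and 0.040 in S3-like cells. Without Kap and mitochondrial genes in the total, it was 0.43, -0.42, 0.53 and 1.38 in S1/S2-like and -0.40, -0.16, 0.38 and 0.13 in S3-like cells. With clusters weighted as in the second library of the comparison, it was -0.11, -0.19, 0.58 and 0.73 in S1/S2-like and -0.40, -0.10, 0.39 and 0.10 in S3-like cells. The log2 ratio of the last to the first bin kept its sign except in aged KAP mice with the other markers. With at most 20% mitochondrial counts, it was 5.33, 2.87, 4.68 and 3.53. Without Kap and mitochondrial genes in the total, it was 4.13, 3.36, 4.19 and 2.97. With bins from the other markers, it was 1.46, 1.21, 0.52 and -0.34. Only 11, 4, 2 and 3 cells lay in the last of those bins, so that they cannot check the gradient. With at least 1 UMI of the pair, it was 3.63, 3.06, 3.69 and 2.72. With at most 20% mitochondrial counts, the share of cells above background was 13.3, 21.8, 27.8 and 36.2% of S1/S2-like and 93.1, 96.5, 100.0 and 99.8% of S3-like cells. At a Leiden resolution of 0.5, the share of cells above background was 0.947, 0.505, 7.75 and 18.8% of S1/S2-like and 89.5, 87.4, 97.8 and 99.1% of S3-like cells. Above the highest background cell, the share of cells above background was 20.7, 18.2, 17.7 and 4.91% of S1/S2-like and 86.7, 75.9, 72.7 and 35.9% of S3-like cells. Against podocytes and endothelial cells, the share of cells above background was 27.8, 29.3, 51.1 and 57.2% of S1/S2-like and 96.8, 97.9, 99.9 and 99.9% of S3-like cells. Above 95% of background cells, the share of cells above background was 30.7, 35.9, 56.3 and 63.8% of S1/S2-like and 97.1, 98.6, 100.0 and 100.0% of S3-like cells. The level outside the proximal tubule was 0.192, 0.0647, 0.347 and 0.311% of that inside with at most 20% mitochondrial counts. The level outside the proximal tubule was 0.239, 0.0748, 0.239 and 0.259% of that inside at a resolution of 0.5. The level outside the proximal tubule was 0.242, 0.0382, 0.26 and 0.134% of that inside without lymphocytes. By the median cell of thinned counts it was 0% in all 4 libraries. With at most 20% mitochondrial counts the ratio of Tfeb in the middle tertile of Kap was -0.16 in young and -0.11 in aged mice. Without that limit, tertiles within S3-like cells gave -0.36 in the middle tertile of young and -0.99 in the lowest of aged mice.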
